A study of Drosophila melanogaster with 30 samples.

Results

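Glutathione S-transferases (GSTs) couple the tripeptide glutathione to reactive or toxic compounds, and in Drosophila several of their genes are induced by oxidative stress. The soluble enzymes fall into 6 classes, Delta, Epsilon, Omega, Sigma, Theta and Zeta, and many Delta and Epsilon genes sit in tandem arrays. The transcription factor CncC, held in check by Keap1, is the best known activator of these genes in flies, and a GstD1 reporter is widely used to read oxidative stress in imaginal discs.

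The genes described here are those whose RefSeq symbol (Release 6, the dm6 build) begins with GstD, GstE, GstO, GstS, GstT or GstZ and whose interval matched an entry of the RNA tables by a reciprocal overlap above 0.9. Of 35 annotated genes, 24 matched an entry in the male table of 11505 entries and 22 in the female table of 10775; all 22 were among the 24. The matched set held 4 of 11 Delta, 11 of 14 Epsilon, 3 of 3 Omega, 4 of 4 Theta and 2 of 2 Zeta genes. No entry in either table overlapped GstD2, GstD4, GstD5, GstD6, GstD7, GstD8, GstD11, GstE2, GstE4 or GstE14, and these 10 genes were not analysed for RNA. GstD9 and GstE7 matched in males only. GstT3, with overlaps of 0.971 in males and 0.969 in females, was nearest to the cut from inside, while GstS1 (0.809 in both sexes) and the female entry over GstD9 (0.883) fell outside it.

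RNA was sequenced from wing imaginal discs, the larval epithelia that form the adult wing, of newly wandering third-instar Drosophila melanogaster. In all 4 groups, males and females of HWT and H4K16R with 3 libraries of 30 discs each, the endogenous replication-dependent histone genes were deleted (ΔHisC on both homologues, one with twi-GAL4 and the other with UAS-2xEYFP, so that mutant larvae could be picked by fluorescence) and a histone transgene supplied the histones. HWT carried wild-type histone genes, and H4K16R carried the same array with lysine 16 of histone H4 changed to arginine, a residue that is acetylated along the male X during dosage compensation. The replication timing protocol describes these arrays as 12 copies of a 5 kb repeat. Timing was measured from 2 S-phase libraries and 1 G1 library per group. The tables give 1 fold change and 1 adjusted p per entry, so neither the level in a library nor its depth is known. The fold change was read as H4K16R over HWT, since the tables do not name the numerator. Standard errors and 95% intervals below were recovered from each fold change and its p-value. The recovery assumes that the authors adjusted by Benjamini-Hochberg, which the sources used here do not state. It also treats each p-value as that of a normal z test. How well that approximation holds for edgeR p-values from 3 libraries per group was not tested. The discs are bulk tissue, so fewer cells of a type and less RNA per cell cannot be told apart.

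In H4K16R males 3 GST genes changed, 1 upward and 2 downward. GstE6, an Epsilon-class gene, rose 8.69-fold, and the Theta-class genes GstT3 and GstT4, both on the X, fell 3.73-fold and 2.17-fold, in the authors' deposited table. That is 3 of 24 members past an adjusted p of 0.05, beside 15.6% of all male entries. By location, both X-linked members were lower, beside 44.6% of X entries, and 1 of 22 autosomal members was called, beside 9.48% of entries on 2L, 2R, 3L and 3R (6.09% called higher). On the log2 scale the 24 members had a median change of 0.11, and all male entries one of 0.02, from the authors' deposited table. In females 0 of 22 members passed, beside 0.974% of all female entries (0.362% higher and 0.613% lower), 0.955% of those on the large autosomes (0.364% higher) and 0.747% of X entries called lower. An unadjusted p under 0.05, recovered here from the adjusted one, was held by 4 of the 22 in females (GstE1, GstE6, GstT3 and GstT4), beside 1252 of 10775 entries, and by 5 of the 24 in males (GstE5, GstE6, GstT1, GstT3 and GstT4), beside 3093 of 11505.

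**Figure D1:**
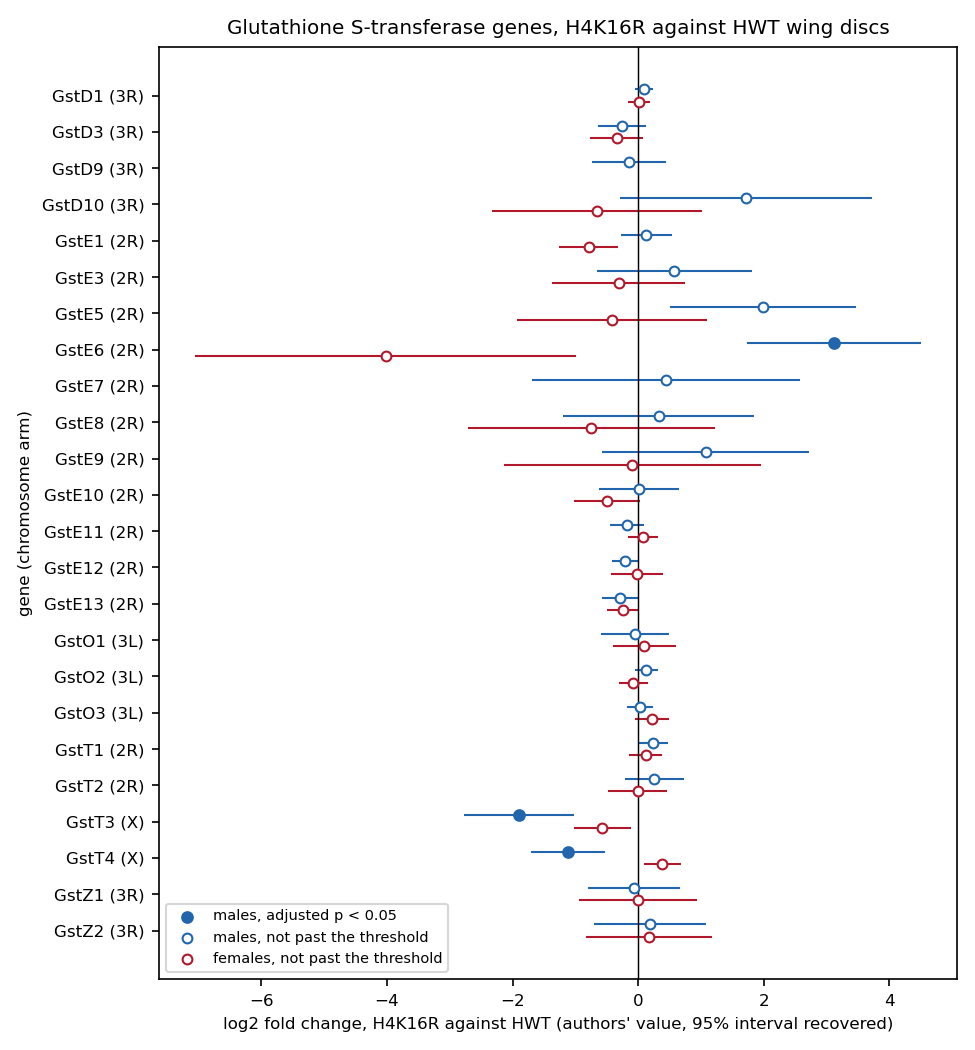
Log2 fold change of H4K16R against HWT for the 24 GST genes (x axis) by gene and chromosome arm (y axis), males in blue and females in red; points are the authors' values and bars the recovered 95% intervals, and filled points have an adjusted p under 0.05. The filled points are GstE6, GstT3 and GstT4 in males, and no female point is filled.

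The Epsilon class, whose members conjugate products of lipid peroxidation and insecticides, is split between an array of 10 genes within 13198 bases at 2R:18396638-18409835 (dm6) and 4 genes elsewhere on 2R. GstE6, at 2R:18406011-18406761, had 3.12 in males on the log2 scale, which all fold changes below use (SE 0.70, interval 1.74 to 4.50, edgeR adjusted p = 0.00032), by the authors' deposited table. Of 9472 male entries on the large autosomes, 120 were at least as high, and 60 of those were called. Its neighbour GstE5 had 1.99 in males (SE 0.75, interval 0.51 to 3.47) and missed the threshold (edgeR adjusted p = 0.0528), by the authors' deposited table. The other 6 array genes with a male entry, GstE1, GstE3, GstE7, GstE8, GstE9 and GstE10, lay between 0.02 (GstE10) and 1.08 (GstE9) in the authors' deposited table, none past the threshold. All 8 male values of the array were thus above 0, as were 60.5% of male entries on the large autosomes, and the median of the 8 was 0.51.

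In females the same array lay below 0. The 7 array genes with a female entry ranged from -4.02 (GstE6) to -0.09 (GstE9), around a median of -0.49 by the authors' deposited table, where 49.3% of entries on the large autosomes lay above 0. GstE6 itself had -4.02 with a wide interval, from -7.05 to -0.98 (SE 1.55, edgeR adjusted p = 0.224), in the authors' deposited table. GstE1 (2R:18398393-18399223), near the array's start, came closest to the threshold, at -0.79 (SE 0.24, interval -1.26 to -0.32, edgeR adjusted p = 0.0703), in the authors' deposited table. GstE10, whose entry overlaps that of GstE1, had -0.49 (SE 0.27, edgeR adjusted p = 0.475) in the authors' deposited table. Whether reads of the pair were told apart where they overlap is unknown, since the sources do not say if counting used strand. Array genes are tandem copies, and the sources used here do not say how reads matching several copies were counted, so values of single array genes are uncertain in that respect.

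The H4K16R change differed between the sexes for 3 of 22 GST genes, beside 7.90% of the 8852 genes tested, 4.08% of those on the large autosomes and 26.5% of those on the X. The test was a z test on the male value less the female value, with Benjamini-Hochberg adjustment over all genes. GstE6 had the widest gap, 7.14 on the log2 scale (SE 1.70, interval 3.80 to 10.47, adjusted p = 0.00184). GstE1 had a gap of 0.92 (SE 0.32, interval 0.30 to 1.54, adjusted p = 0.0489), a call lost when both tables were recentred on their autosomal medians. GstT4, on the X, had -1.50 (SE 0.34, interval -2.16 to -0.84, adjusted p = 9.24e-04). X entries as a whole had a median of -0.43 in males and -0.001 in females, and the GstT4 gap was not tested against that shift. The gap of GstE5, 2.40 (SE 1.08, interval 0.29 to 4.52), did not pass (adjusted p = 0.157). All 7 array genes present in both tables had a higher value in males than in females, as had 14 of the 22 GST genes. Of the array genes only GstE6 and GstE1 passed, and the intervals of GstE3, GstE8, GstE9 and GstE10 include 0. Array genes may share reads, so the 7 are not separate measurements.

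**Figure D2:**
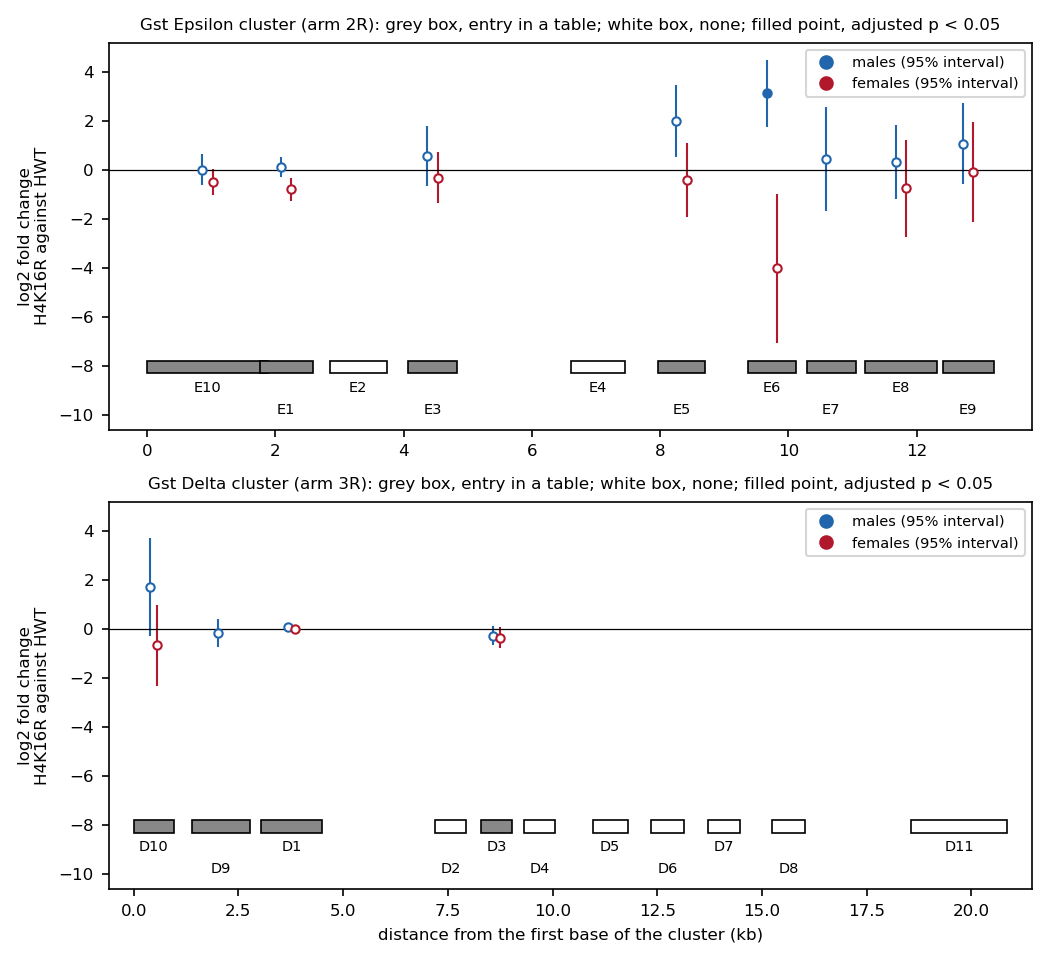
Log2 fold change of H4K16R against HWT (y axis) at each gene of the Epsilon array (top) and the Delta array (bottom) against the distance in kb from the first base of the array (x axis); bars are 95% intervals, boxes are genes, and white boxes have no entry in either table. The male points of the Epsilon array all lie above 0 and the female points all below it, while GstD1 lies at 0.09 in males and 0.02 in females.

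For the 3 measured Epsilon genes outside the array no change passed in either sex. In males GstE11, GstE12 and GstE13 had -0.18, -0.21 and -0.29 in the authors' deposited table, with adjusted p between 0.196 and 0.44. In females they had 0.07, -0.02 and -0.24 in the authors' deposited table. Their male minus female gaps were -0.25 (interval -0.61 to 0.11), -0.19 (interval -0.65 to 0.28) and -0.05 (interval -0.44 to 0.35), none past the threshold.

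The Delta class includes GstD1, the gene behind the reporter of oxidative stress and an enzyme that degrades the insecticide DDT. GstD1, at 3R:12367817-12369268 (dm6), had 0.09 in males (SE 0.07, interval -0.05 to 0.23, edgeR adjusted p = 0.422) and 0.02 in females (SE 0.09, interval -0.16 to 0.19, edgeR adjusted p = 0.971), in the authors' deposited tables. These were the narrowest intervals of any member in either sex. Another male entry, without a gene name, overlaps that of GstD1 at 3R:12367807-12368619 and had 0.08 (SE 0.07, edgeR adjusted p = 0.522) in the authors' deposited table. Of all members, 10 of 24 in males and 8 of 22 in females have an entry that overlaps another. GstD3 had -0.26 in males (SE 0.20) and -0.34 in females (SE 0.21) in the authors' deposited tables, not past the threshold. GstD10, at the edge of the array, had 1.72 in males and -0.66 in females in the authors' deposited tables, with SEs of 1.02 and 0.85 and intervals that include 0 (-0.29 to 3.73 and -2.33 to 1.01). GstD9 had -0.15 in males (SE 0.30) in the authors' deposited table. The 11-gene Delta array spans 20849 bases, and 7 of its genes have no entry.

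The Omega genes GstO1, GstO2 and GstO3 encode thiol-transfer enzymes related to the eye pigment enzyme encoded by sepia (se). They lay between -0.05 and 0.13 in males and between -0.07 and 0.22 in females in the authors' deposited tables, with adjusted p of at least 0.40 and 0.576. The gene se, which lies among them on 3L and is no member by its symbol, had 0.44 in males (SE 0.64) and 0.11 in females (SE 0.69) in the authors' deposited tables. The Zeta genes GstZ1 and GstZ2, of the class that acts in tyrosine breakdown, had -0.07 and 0.19 in males and -0.003 and 0.17 in females in the authors' deposited tables, with SEs of 0.37 to 0.51. None of these passed in either sex.

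The Theta class divides by chromosome. GstT1 and GstT2, adjacent on 2R, had 0.24 (SE 0.12, edgeR adjusted p = 0.166) and 0.26 (SE 0.24, edgeR adjusted p = 0.532) in males, and 0.12 and -0.01 in females, in the authors' deposited tables. GstT3, at X:20467455-20469796 (dm6), had -1.90 in males (SE 0.45, interval -2.77 to -1.02, edgeR adjusted p = 5.64e-04) and -0.57 in females (SE 0.23, edgeR adjusted p = 0.26) in the authors' deposited tables. GstT4, at X:13404749-13409323 (dm6), had -1.12 in males (SE 0.30, interval -1.70 to -0.53, edgeR adjusted p = 0.00298) and 0.385 in females (SE 0.15, edgeR adjusted p = 0.242) in the authors' deposited tables. The sex difference of GstT3, -1.33 (interval -2.31 to -0.34), did not pass (adjusted p = 0.0799). It was called after recentring both tables on their autosomal medians. A t-based standard error also gave a call, but that setting lowers every p by construction, so the call adds no support.

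X-linked entries as a whole were lower in H4K16R males, with a median of -0.43 by the authors' deposited table, so the X members were also read against that median. GstT3 lay 1.47 below it on the log2 scale (a value of -1.47, adjusted p = 0.0183 over 1901 X entries, of which 7.1% passed), and 1.63% of X entries were as low. GstT4 had -0.68 against the same median and did not pass (adjusted p = 0.17); 6.52% of X entries were as low. Mgstl, an X-linked microsomal GST outside the 6 soluble classes, had -0.67 in males (SE 0.16, edgeR adjusted p = 5.94e-04) and -0.08 in females in the authors' deposited tables, and -0.24 against the male X median (adjusted p = 0.425). In females the X median was -0.001 in the authors' deposited table.

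**Figure D3:**
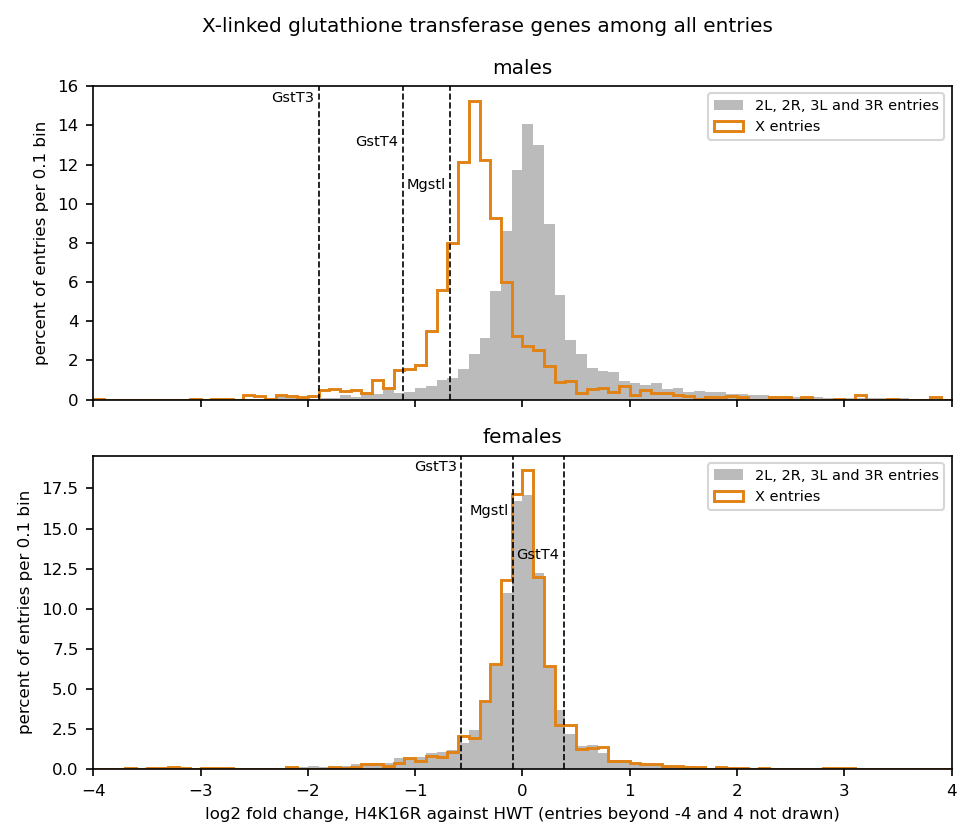
Percent of entries per bin of 0.1 (y axis) against the log2 fold change of H4K16R against HWT (x axis) in males (top) and females (bottom), for X entries (orange) and entries on 2L, 2R, 3L and 3R (grey); dashed lines mark GstT3, GstT4 and Mgstl. In males the X entries centre at -0.43, and GstT3 lies at -1.90, in the lower tail of the X.

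GstS1, the only Sigma-class gene and one with a prominent product in flight muscle, was outside the overlap rule because its entry covers 0.809 of the annotated gene. That entry, at 2R:17093246-17098306 (dm6), had -0.28 in males (SE 0.08, edgeR adjusted p = 0.00823) and 0.11 in females (SE 0.11, edgeR adjusted p = 0.753), in the authors' deposited tables. The female entry over GstD9 had -0.61 (SE 0.27, edgeR adjusted p = 0.304) in the authors' deposited table.

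Regulators of GST genes and other stress genes were read from lists chosen for the pathway. Earlier results of these data were known when the lists were chosen, so counts of called genes are not independent support. cnc, which encodes CncC, had -0.09 in males (edgeR adjusted p = 0.419) and 0.11 in females, and its partner maf-S had -0.19 and 0.16, in the authors' deposited tables. Keap1 had 0.39 in males (SE 0.15, edgeR adjusted p = 0.0513) and 0.35 in females (SE 0.16, edgeR adjusted p = 0.354) in the authors' deposited tables. Of all male entries, 5.35% were called higher and 10.3% lower. Of the 10 genes listed as CncC, Keap1 and other stress regulators, 4 were higher and 0 lower in males (median 0.25), by the authors' deposited table. They were the basic leucine zipper gene Xrp1 (1.54), its dimer partner Irbp18 (1.08), the autophagy receptor and CncC target ref(2)P (0.51) and crc (0.25), which encodes the fly ATF4, in the authors' deposited table. In females 0 of these 10 passed, beside 0.974% of all female entries. Xrp1 had 0.31 in females (SE 0.09, edgeR adjusted p = 0.0767) by the authors' deposited table. The male value exceeded the female one by 1.23 for Xrp1 (z test, adjusted p = 1.84e-05) and by 1.18 for Irbp18 (z test, adjusted p = 0.0271). For ref(2)P (0.11 in females) the gap of 0.40 did not pass (z test, adjusted p = 0.178), nor did that of 0.05 for crc (0.19 in females, adjusted p = 0.86).

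Few genes of enzymes that make glutathione or remove peroxides passed. Of 4 measured genes of glutathione synthesis and turnover, 0 passed in males: Gclc and Gclm, the subunits of the rate-limiting ligase, had 0.004 and 0.35 by the authors' deposited table. Of 16 genes of superoxide, peroxide and thioredoxin defence, 1 was higher in males, the mitochondrial peroxiredoxin gene Prx3 at 0.46 (SE 0.15, edgeR adjusted p = 0.0193), around a list median of 0.01, by the authors' deposited table. Sod1, Sod2 and Cat, the superoxide dismutases and catalase, had 0.09, -0.06 and -0.17 in males in the authors' deposited table, none past the threshold. Of 7 genes in the NADPH list, 3 were lower and 1 higher in males by the authors' deposited table. The lower ones were the X-linked pentose phosphate genes Zw (-0.95) and Pgd (-0.53) and the aldose reductase gene Akr1B (-0.74), which uses NADPH rather than supplying it, and the higher one was the malic enzyme gene Men-b (0.51), in the authors' deposited table. In females 0 of 5, 0 of 17 and 0 of 7 genes of these 3 lists passed in the authors' deposited table, beside 0.974% of all female entries. The male counts stand beside 15.6% of all male entries called (5.35% higher and 10.3% lower) and 44.6% of X entries called lower.

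Genes of JNK signalling and cell stress had 4 higher and 1 lower of 13 in males (median 0.63), by the authors' deposited table. The higher ones were upd3 (2.42) and upd1 (0.65), ligands of the JAK/STAT pathway, the damage-induced gene Gadd45 (2.03) and the caspase gene Dronc (0.63), and the lower one was the cell death gene rpr (-0.92), in the authors' deposited table. In females 0 of 14 passed (median 0.16), by the authors' deposited table. These counts stand beside 5.35% of male entries called higher and 10.3% called lower, and 0.974% of female entries called.

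The called genes of other detoxification families are given beside the same male background, in which 10.3% of all entries and 44.6% of X entries were lower and 5.35% of all entries higher. Of 35 cytochrome P450 genes, which encode oxidases acting ahead of GSTs, 1 was higher and 7 lower in males by the authors' deposited table, 4 of the 7 being on the X, and the list median was -0.05. Among these 8 called genes the widest changes were those of Cyp6d2 (2.32, edgeR adjusted p = 8.48e-07), Cyp4e2 (-1.31), Cyp9c1 (-1.22) and the X-linked Cyp4d14 (-1.16) in the authors' deposited table. Cyp6d2 had -1.16 in females, and the sexes differed by 3.47 (SE 0.83, z test, adjusted p = 0.00194). Of 10 UDP-glycosyltransferase genes, which couple sugars to toxins, 0 were higher and 2 lower in males, Ugt317A1 (-1.39) and Ugt36D1 (-0.69), in the authors' deposited table. Of 12 carboxylesterase and other detoxification genes, 0 were higher and 4 lower in males, around a median of -1.07 by the authors' deposited table. The lower ones were alpha-Est3 (-1.49), Jheh1 (-1.30), the X-linked Sptr (-1.12) and Akr1B (-0.74, counted above as well), in the authors' deposited table. In females these 3 families had 1 lower of 32 (Cyp9c1, -1.14), 0 of 11 and 1 lower of 13 (alpha-Est3, -1.61) in the authors' deposited table. Of all female entries, 0.613% were called lower. Among 12 other genes with a GST fold or a microsomal GST, 2 were higher and 3 lower in males by the authors' deposited table. They were MetRS (0.48) and eEF1beta (0.25) of protein synthesis, and fax (-0.20) and the X-linked Mgstl and Clic (-0.41), in the authors' deposited table.

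**Figure D4:**
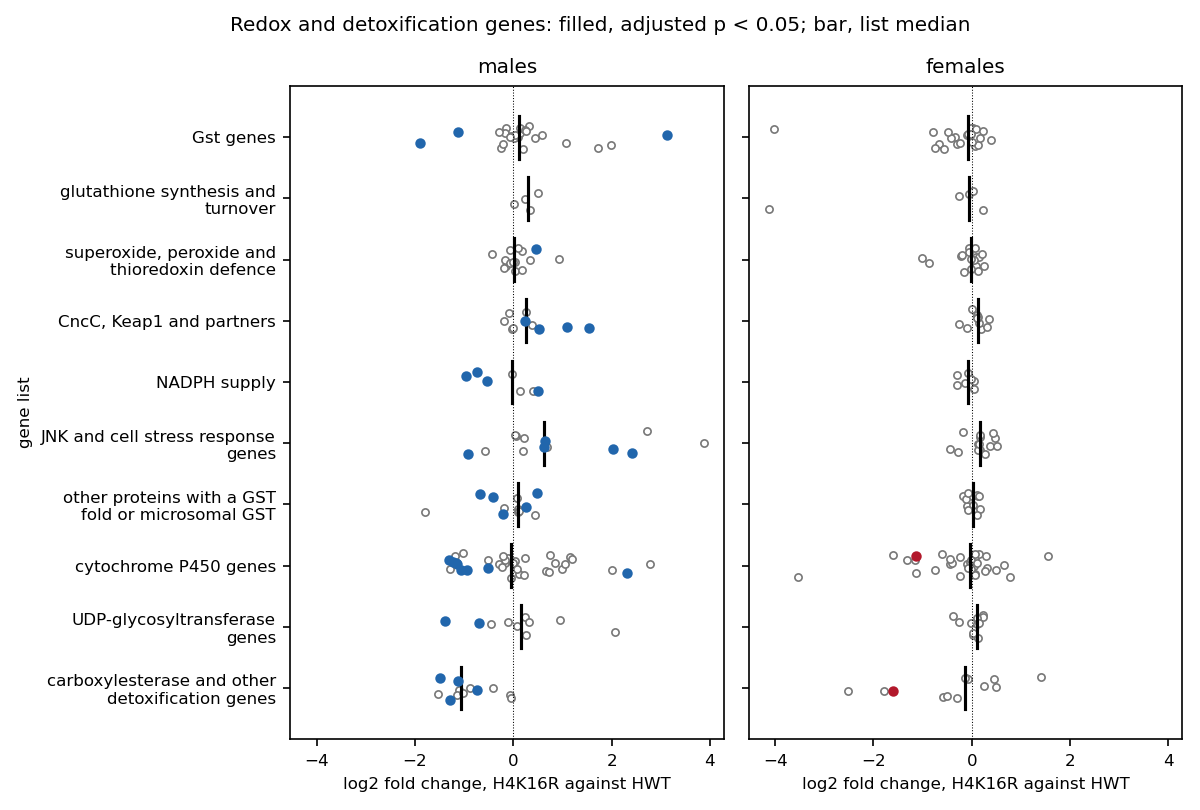
Log2 fold change of H4K16R against HWT (x axis) for the GST genes and 9 lists of related genes (y axis) in males (left) and females (right); each point is a gene, filled where its adjusted p is under 0.05, and black bars are list medians. GstE6, at 3.12, is the highest GST gene in males, and the carboxylesterase list has the lowest male median, -1.07.

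Markers of the disc and of other larval tissues were read in the same tables, which hold entries for 15 of 16 listed wing disc epithelium markers in each sex but no levels. Of those 15, 5 were lower in males (median -0.11), sd (-0.33) by most and 2 of the 5 on the X, and 0 were called in females (median 0.07), by the authors' deposited tables. Of 10 larval fat body markers, a tissue rich in detoxification enzymes, 6 were lower and 1 higher in males, over a range from -2.88 to 1.41 with a median of -1.96, by the authors' deposited table. In females 1 of 10 was lower and the median was -0.78 by the authors' deposited table. Hemocyte markers had 0 of 12 called in males (median -0.71) and 1 of 10 lower in females, and salivary gland markers had 0 of 6 called in either sex (medians -3.04 and -1.05), in the authors' deposited tables. Of 8 tracheal markers 1 was lower in males by the authors' deposited table. Of 8 neuron and glia markers 1 was higher and 3 lower in males, all 3 on the X, by the same table. Of 10 adult muscle precursor markers 1 was higher and 1 lower in males, and of 4 gut and Malpighian tubule markers 0 were called, in the authors' deposited table. These counts stand beside 10.3% of all male entries called lower, 5.35% called higher and 44.6% of X entries called lower, and in females beside 0.613% called lower. The part of these tissues in the GST results was not tested.

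Replication timing gave a second readout at the same loci, as the log2 ratio of S-phase to G1 coverage in windows of 100 kb, in which a high value marks early replication. It holds for all 35 annotated genes, but genes of 1 array share windows and are not separate measurements. None of the 35 differed between H4K16R and HWT by 0.1 or more in either sex, beside 1.86% of windows in males and 2.73% in females. In males the differences ran from -0.07 (GstT3) to 0.02 (the Omega genes), with a median of -0.01. In females they ran from -0.03 (GstS1) to 0.06 (GstT4), with a median of 0.01.

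All GST loci other than GstT3 and GstE14 had a ratio above 0 in HWT of both sexes. At GstD1 in the Delta array the male HWT value was 0.1085, as early as or earlier than 97.2% of 3R windows, and the H4K16R value was 0.0493, as early as or earlier than 69.5%. In females that window had 0.0519 in HWT and 0.0708 in H4K16R. GstE6 in the Epsilon array had 0.0557 in HWT and 0.0577 in H4K16R males, and 0.062 and 0.0552 in females. GstT3 was the latest locus in both sexes, at -0.0389 in HWT and -0.1135 in H4K16R males and at -0.09 and -0.1029 in females. In HWT 19.6% of X windows were as late in males and 14.6% in females. GstT4 had 0.085 in HWT and 0.0541 in H4K16R males, and 0.0167 and 0.0728 in females. There is 1 timing value per group, so these differences have no replicate check.

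**Figure D5:**
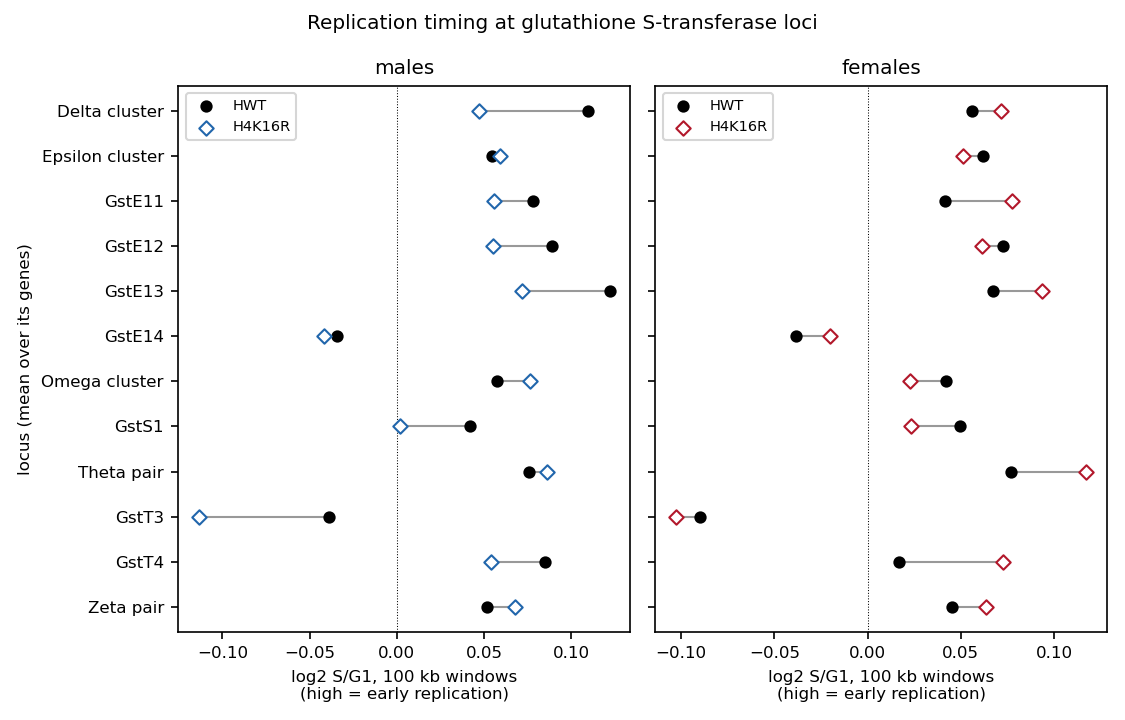
Log2 S/G1 ratio in 100 kb windows (x axis, high is early) at each GST locus (y axis; arrays are means over their genes) for HWT (black) and H4K16R (open diamonds) in males (left) and females (right). GstT3 and GstE14 lie below 0 in both genotypes and sexes, and all genotype differences are under 0.1.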

How the data were processed

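Per the file headers, the authors deposited for each sex an adjusted p-value and a log2 fold change per dm6 interval, made with edgeR per the labels. The submitters' processing notes list, without roles, the aligners Bowtie2 2.3.2 and TopHat, the packages limma and edgeR, and SAMtools 1.6, Cufflinks 2.2.1 and bedtools. Per the labels' protocols, a stranded kit with removal of ribosomal RNA was used, with an ERCC spike-in. The authors deposited timing as an S/G1 ratio in the female table (log2 taken here) and on a log scale, read as log2, in the male one. The planned count models could not be run, since no value per library is given. The sources used here do not say whether low entries were removed or whether counting used strand. The H3K9R and yw timing tables were not used. The labels do not name separate animals or crosses for replicates, so p-values measure the spread between libraries.

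To recover unadjusted p-values, a Benjamini-Hochberg adjustment was assumed, since the method is not stated, and inverted (each adjusted p multiplied by its rank and divided by how many entries there were), with the largest rank in ties (an upper bound). Standard errors are the fold change over the normal quantile of that p. Steps were run on simulated data to check the arithmetic only. Whether the assumed adjustment and the normal quantile hold for the authors' p-values was not tested. Entries took the name of a gene with reciprocal overlap above 0.9. All members are accounted for; those past 0.05 in a sex or in the difference are given in full, and up to 4 called genes per list. The members and lists were chosen with earlier results of these data known. Another 6 symbols were left out of the lists after values were seen, because they name other proteins (such as the cyclophilin Cyp1) or are not known to be GST-like; 1 of them, Cyp1, was called lower in males. Alternatives were other thresholds, minimum fold changes, Holm adjustment, adjustment over named entries, other overlaps, recentring, a t-based standard error and other timing windows. No sequence table or genome was used, so the planned promoter motifs were not searched. Software was matplotlib 3.10.9, scipy 1.17.1, pandas 2.3.3 and numpy 2.4.6 under Python 3.11.15.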

Additional observations from a re-analysis of the deposited data

Results flagged for a closer look

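By the z test of the difference, the H4K16R change differed between males and females for 3 of 22 GST genes. Of the 8852 genes tested 7.90% differed, with 4.08% on the large autosomes and 26.5% on the X. The male minus female difference in log2 fold change was 7.14 for GstE6 (adjusted p = 0.00184), 0.92 for GstE1 (adjusted p = 0.0489) and -1.50 for GstT4 (adjusted p = 9.24e-04). GstE6 and GstE1 lie in the Epsilon array and GstT4 on the X. The GstE1 call was lost after recentring on 2L, 2R, 3L and 3R (z test, adjusted p = 0.0655). No group of samples could be searched for outlying libraries, because the tables hold no value per library.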

How the results depend on the processing

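Most alternatives change the threshold or the genes tested and leave each fold change as it is. Recentring on 2L, 2R, 3L and 3R gave 3.04 for GstE6, -1.98 for GstT3 and -1.19 for GstT4 in males. With Holm adjustment 0 of 24 members passed in males; the count stayed at 3 or within 1.5 times of it under the other alternatives. Against the X median GstT4 was no longer past the threshold (-0.68, adjusted p = 0.17), an alternative chosen after seeing the data. In females 1 member, GstE1, passed at an adjusted p under 0.1. Of the 3 sex differences, 1 (GstE6) remained when only genes on 2L, 2R, 3L and 3R were tested, which leaves out GstT4 and adjusts over fewer genes. The GstE1 difference was lost there, at a threshold of 0.01 and after recentring (0.84). GstT3 was gained by that recentring and at a threshold of 0.1, and GstS1 with overlaps above 0.8. The t-based standard error also gained GstT3. It is smaller than the normal one while p was still taken from the normal distribution, so every p falls by construction. The count of GST genes with shifted timing (0) was the same with a minimum difference of 0.2 and with the mean of all overlapping windows, and counts of called list genes stayed within 1.5 times. No paired analysis was possible because the tables hold no value per library; for the same reason leaving out replicates, a low-count filter and other count normalizations were not run. The library depth behind a value is unknown; intervals wider than 1 on the log2 scale, as for GstE7, GstE8, GstE9 and GstD10, leave large changes in either direction undetected.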

Other observations

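In males the nearest named genes on both sides of the Delta array were called higher, as were 6.09% of entries on the large autosomes. None of the 4 measured array members passed in males, but the GstD10 interval, -0.29 to 3.73, covers both flanking values. CG4115, on one side at 3R:12360008-12363255 (dm6), had 0.73 in males (SE 0.20, edgeR adjusted p = 0.00449) and 0.38 in females (SE 0.22, edgeR adjusted p = 0.501), in the authors' deposited tables. Sol1, on the other side at 3R:12386249-12402902, had 0.98 in males (SE 0.22, edgeR adjusted p = 2.11e-04) and -0.31 in females (SE 0.15, edgeR adjusted p = 0.418), in the authors' deposited tables. Beside the Epsilon array, the immune signalling gene imd, whose entry overlaps that of GstE9, had 0.23 in males (edgeR adjusted p = 0.124) and 0.21 in females in the authors' deposited tables. On the array's other side, lncRNA:CR42736 was the nearest named entry in males, at 0.91 (SE 1.23, edgeR adjusted p = 0.684), and sbb in females, at 0.18 (SE 0.10, edgeR adjusted p = 0.523), in the authors' deposited tables. Beside the Omega genes, CG6683 had -0.11 in males and foi 0.12, in the authors' deposited table, neither past the threshold.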
